A study of Mus musculus with 19 samples.

Results

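The genes described are 10 heat shock protein genes, read from the 39017 genes of a count table by their symbols: Hspa1a, Hspa1b, Hsph1, Dnajb1, Hsp90aa1, Hspb1, Hspa8, Hspd1, Hspe1 and Hspa4l. All 10 were found and all 10 passed the filter on low counts. They were chosen by name as heat shock genes, with earlier results of these data known. Hspa4l was selected on its counts in these libraries, so its values are a description. The counts of called genes below run over the other 9. RNA came from mCherry-marked E0771, a line of mouse mammary carcinoma cells, which had grown in the mammary fat pad of mice of strain c57bl6. The library names pair obese with HFD and lean with Chow. The groups were obese endpoint (5 libraries), lean endpoint (4 libraries), obese midpoint (5 libraries) and lean midpoint (4 libraries), with the endpoint at day 21 and the midpoint at day 14 after implantation. Every group carried the same line, so no library came from tumor-free tissue, and every tumor went through enzymatic dissociation and cell sorting before RNA was taken. The labels speak of cells from each tumor, so p-values measure the spread between tumors.

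Heat shock proteins are chaperones that bind unfolded proteins, hold them in solution and help them fold. The HSP70 proteins (Hspa genes) work in cycles of ATP binding, in which J-domain proteins such as Dnajb1 deliver clients and start hydrolysis, and HSP110 proteins such as Hsph1 and Hspa4l release the nucleotide. HSP90 proteins take clients such as kinases and steroid receptors at a later stage, small heat shock proteins such as Hspb1 hold unfolded clients without ATP, and Hspd1 with its lid Hspe1 forms a folding chamber inside mitochondria. Under protein stress the transcription factor HSF1 binds repeated GAA blocks in front of the inducible genes, whereas Hspa8 is made constantly and is among the most abundant proteins of the cytosol. Dissociation of a tissue at warm temperature is itself known to induce several of these genes.

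Upstream sequence was available for 8 of the 10 genes, as RefSeq windows on build GRCm38.p6 from 250 bases before to 50 bases after a gene start. Hspa8 and Hsp90aa1 were not among them. They were searched for the heat shock element letters GAANNTTC and TTCNNGAA, each of which reads the same on both strands and which overlap each other in longer runs. At least one of these stood in 15.1% of all 32851 windows, and a run of 3 blocks (GAA, TTC and GAA, or TTC, GAA and TTC, with NN between blocks) in 0.603%. The window of Hspe1, 1 of the 2 windows of Hspd1 and both windows of Hsph1 held such a run of 3 blocks. Windows of Hspa1a, Hspa1b and Hspb1 held GAANNTTC alone, and those of Hspa4l and Dnajb1 held neither. The Hspa4l window lies inside the gene as counted, which begins at position 40744495, so the stretch before that start was not searched. The Hspd1 window with the run (chr1:55087883-55088182, minus strand) shared 285 bases with that of Hspe1. The other Hspd1 window (chr1:55088194-55088493, minus strand), which belongs to the gene start in the count table, held neither motif. The windows of Hspa1a (chr17:34972107-34972406, minus strand) and Hspa1b were identical at 296 of 300 positions. The windows of 4 genes whose counts are followed below are printed 5′ to 3′, with the element letters in capitals: Hspe1 at chr1:55087898-55088197 (plus strand), Hspa1b at chr17:34959189-34959488 (minus strand), Hsph1 at chr5:149636266-149636565 (minus strand) and Hspa4l at chr3:40745363-40745662 (plus strand).
Hspe1: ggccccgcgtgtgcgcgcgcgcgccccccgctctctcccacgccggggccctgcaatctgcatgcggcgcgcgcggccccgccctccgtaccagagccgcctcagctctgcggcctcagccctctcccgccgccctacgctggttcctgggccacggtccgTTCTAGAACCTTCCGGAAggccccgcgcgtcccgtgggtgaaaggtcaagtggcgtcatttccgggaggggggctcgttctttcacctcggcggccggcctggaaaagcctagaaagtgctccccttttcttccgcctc
Hspa1b: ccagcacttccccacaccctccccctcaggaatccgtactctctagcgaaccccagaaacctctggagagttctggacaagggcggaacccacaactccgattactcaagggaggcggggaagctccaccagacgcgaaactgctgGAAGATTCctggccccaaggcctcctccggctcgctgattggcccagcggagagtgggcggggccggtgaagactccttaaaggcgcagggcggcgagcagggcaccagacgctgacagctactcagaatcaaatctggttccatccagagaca
Hsph1: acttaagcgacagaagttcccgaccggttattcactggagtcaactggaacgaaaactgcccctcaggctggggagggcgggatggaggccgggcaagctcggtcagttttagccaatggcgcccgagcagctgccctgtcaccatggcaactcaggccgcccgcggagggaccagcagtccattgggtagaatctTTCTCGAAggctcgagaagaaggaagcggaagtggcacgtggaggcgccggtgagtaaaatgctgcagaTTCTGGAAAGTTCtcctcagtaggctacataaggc
Hspa4l: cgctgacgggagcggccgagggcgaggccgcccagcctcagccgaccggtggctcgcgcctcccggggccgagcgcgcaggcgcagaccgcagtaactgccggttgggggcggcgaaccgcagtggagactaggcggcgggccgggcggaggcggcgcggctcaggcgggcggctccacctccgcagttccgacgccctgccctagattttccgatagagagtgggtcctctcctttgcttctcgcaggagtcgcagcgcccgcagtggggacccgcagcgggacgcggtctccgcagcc
The run in the Hspe1 window began 89 bases before the gene start. In Hsph1 the run lay after the gene start, beginning 15 bases past it in the printed window and 36 in the other one. The element in the Hspa1b window began 104 bases before the start, at the same place as in Hspa1a. A match of letters is a description of the sequence, not a measured binding site.

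The 18 libraries held 44174080 to 56996252 counts each. A further lean endpoint library, replicate 4, held 11889188 counts that stopped on chromosome 5, and was left out. Mitochondrial transcripts took 17.1% to 24.4% of counts in obese endpoint libraries and 17.1% to 44.7% in lean endpoint libraries, against 5.79% to 8.06% in obese midpoint and 8.95% to 12.3% in lean midpoint libraries. Expression also leaned on the GC content of genes to a different degree in each group: the median slope, as the log2 CPM gained for each 10 points of GC percent, was -0.73 at the obese endpoint, -0.66 at the lean endpoint, 1.02 at the obese midpoint and 0.24 at the lean midpoint. The exons of the members ranged from 39.5% GC (Hspa4l) to 61.7% (Hspb1), so fold changes were also computed after a trend on GC content and length was removed from every library, called corrected values below. The corrected values of all 10 genes stand in the plot of fold changes. Of 6 epithelial and mammary carcinoma markers only Krt8 averaged over 1 CPM, and Krt19 or Krt7 was at 0 counts in whole groups, whereas 6 fibroblast markers summed to 972 to 2768 CPM over all groups. In sorted bulk RNA, fewer cells of a type and less RNA per cell cannot be told apart.

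CPM (counts scaled to library size) divided by exon length in kilobases, which allow levels to be compared between genes, differed widely. Hspa8 led in every group, with means of 818, 839, 845 and 933 at the obese endpoint, lean endpoint, obese midpoint and lean midpoint. Hspe1 followed at the midpoint (227 obese and 189 lean), and Hspd1 and Hspe1 stood close together at the endpoint, with 158 ± 11.9 against 146 ± 19.4 in obese and 150 ± 50.4 against 155 ± 35.8 in lean libraries (SD, n = 5 and 4). Those means lay within the spread of the libraries. Dnajb1, itself inducible by heat, lay between 69.3 at the lean endpoint and 106 at the obese midpoint. At the midpoint Hspd1 averaged 38.3 in obese libraries, below Dnajb1, and 87.8 in lean libraries, close to Dnajb1 (89.0). The other stress-inducible genes were below Dnajb1 in every group. Hsp90aa1 averaged 46.3 and 35.5 at the obese and lean endpoint and 4.65 and 7.37 at the obese and lean midpoint. Hsph1 and Hspa1b lay between 6.08 and 21.5 in all groups. Hspa4l (0.545 to 7.60), Hspa1a (0.514 to 1.28) and Hspb1 (0.102 to 0.263) were the lowest.

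**Figure D1:**
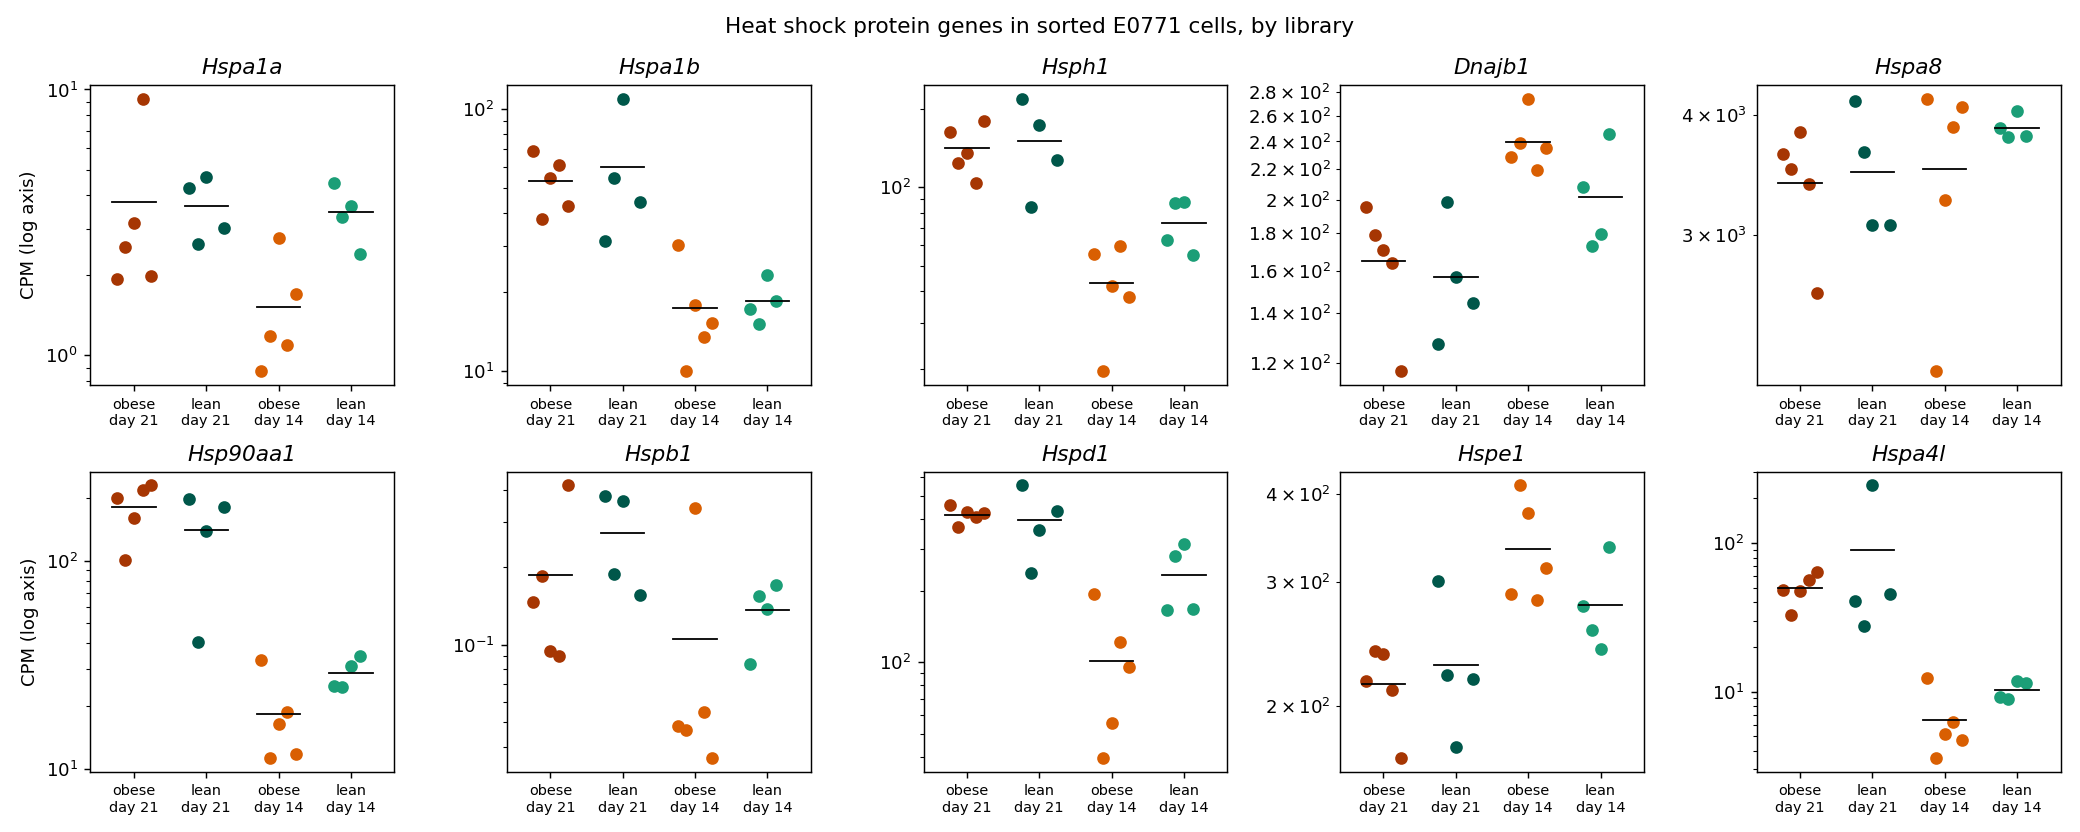
CPM (log axis) of the 10 genes in 18 libraries, 1 dot per library and a line at the group mean. Hsp90aa1 and Hspa4l were higher in every endpoint (day 21) library than in any midpoint (day 14) library, and Hspa8 stayed between 2158 and 4163 CPM.

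The first comparison asked whether cancer cells from obese mice differed from those of lean mice at the midpoint. Of the 9 genes 2 were called, both lower in obese libraries, against 29.5% of the 16352 genes tested (16.7% higher and 12.8% lower), a share near that background. With the correction 1 was called higher and 2 lower, against 8.23% higher and 3.64% lower over all genes (11.9% in all). The 2 called lower, with and without the correction, were Hspa1a, an inducible HSP70, and Hspd1, the mitochondrial HSP60. The 1 called higher with the correction was Hspe1. The split of all calls depended on scaling: 56.5% of calls were higher after TMM scaling, 69.3% after the GC and length correction and 42.2% with mitochondrial transcripts left out.

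Hspa1a (chr17:34969199-34972154, mm10) had 0.870, 1.18, 2.75, 1.10 and 1.70 CPM in obese midpoint libraries, against 4.45, 3.32, 3.66 and 2.40 CPM in lean midpoint libraries. Only obese replicate 3 reached the lean range. The log2 fold change was -1.19 ± 0.42 (SE; edgeR quasi-likelihood test, Benjamini-Hochberg adjusted p = 0.0417) and -1.77 (adjusted p = 0.0284) with GC content and length corrected. Hspa1a is a low-count gene, and 66.3% of all its 50-base words also occur in other genes, with 58.8% of all its words found in Hspa1b. Summed with its copies, the HSP70 pair gave -0.23 ± 0.31 (edgeR adjusted p = 0.571), a sum made mostly of Hspa1b, which had 17.3 ± 7.76 CPM in obese and 18.5 ± 3.47 CPM in lean midpoint libraries (SD, n = 5 and 4). The call was lost on leaving out any of 9 of the 18 libraries, with values between -1.53 and -1.04. Some of these fits called 0 of all genes.

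Hspd1 (chr1:55077835-55088243, mm10) had 194, 39.5, 55.5, 122 and 95.2 CPM in obese midpoint libraries, against 166, 280, 314 and 167 CPM in lean midpoint libraries. Obese replicate 1 alone lay within the lean range. The log2 fold change was -1.19 ± 0.34 (edgeR adjusted p = 0.0304) and -0.84 after the correction (adjusted p = 0.0358). Its call was lost without obese midpoint replicate 2 (-1.01) or 3 (-1.06), or lean midpoint replicate 2 (-1.11) or 3 (-1.04). In each of these fits edgeR called 0 of all genes, so the loss was not particular to Hspd1. The calls of Hspd1 and Hspa1a were also lost when the 2 midpoint groups were fitted alone. There edgeR called 0 of 15200 genes, and 6314 had an unadjusted p under 0.05.

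For Hsph1 the obese midpoint libraries had 55.2, 19.6, 41.8, 59.6 and 37.9 CPM, against 62.8, 86.8, 87.8 and 54.9 CPM in lean ones. The groups overlapped in 2 obese libraries, and the log2 fold change of -0.77 ± 0.29 missed the threshold (edgeR adjusted p = 0.0502). It passed under RLE scaling (-0.83, adjusted p = 0.04) and was -0.35 after the GC correction. Hsp90aa1 (-0.66 ± 0.37) and Hspa8 (-0.14 ± 0.17) did not pass, nor did Dnajb1 (0.25 ± 0.17), Hspb1 (-0.44 ± 0.65) or Hspa1b (-0.09 ± 0.32). Hspe1 had 0.27 ± 0.18 and was called higher in obese libraries once GC content and length were corrected (0.79, adjusted p = 0.0378).

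At the endpoint, 0 of the 9 genes differed between obese and lean libraries by edgeR's quasi-likelihood test. The share was 0.00612% of all genes, and 0 of the 9 had an unadjusted p under 0.05. DESeq2 also called 0 of them. Every fold change other than those of Hspa4l and Hspb1 lay between -0.17 and 0.38 on the log2 scale. Standard errors ran between 0.17 (Dnajb1) and 0.60 (Hspb1), so only a large difference in Hspb1 could have been detected at this depth. For Hsp90aa1 the obese endpoint libraries had 201, 101, 160, 218 and 230 CPM, against 197, 40.5, 139 and 182 CPM in lean endpoint libraries, and the ranges overlapped (log2 fold change 0.38 ± 0.37). The fold changes between obese and lean were not shown to differ between the time points. In edgeR 0 of the 9 passed the diet by time test, against 0% of all genes, and 2 had an unadjusted p under 0.05. In DESeq2 0 of the 9 passed as well, where 1557 of all genes were called. The largest estimates were those of Hspd1 (1.27 ± 0.49, edgeR adjusted p = 0.106) and Hspa1a (1.24 ± 0.59, edgeR adjusted p = 0.149). Without obese midpoint replicate 1, Hspd1 (1.65, adjusted p = 0.0154) and Hsp90aa1 (1.37, adjusted p = 0.0352) passed.

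**Figure D2:**
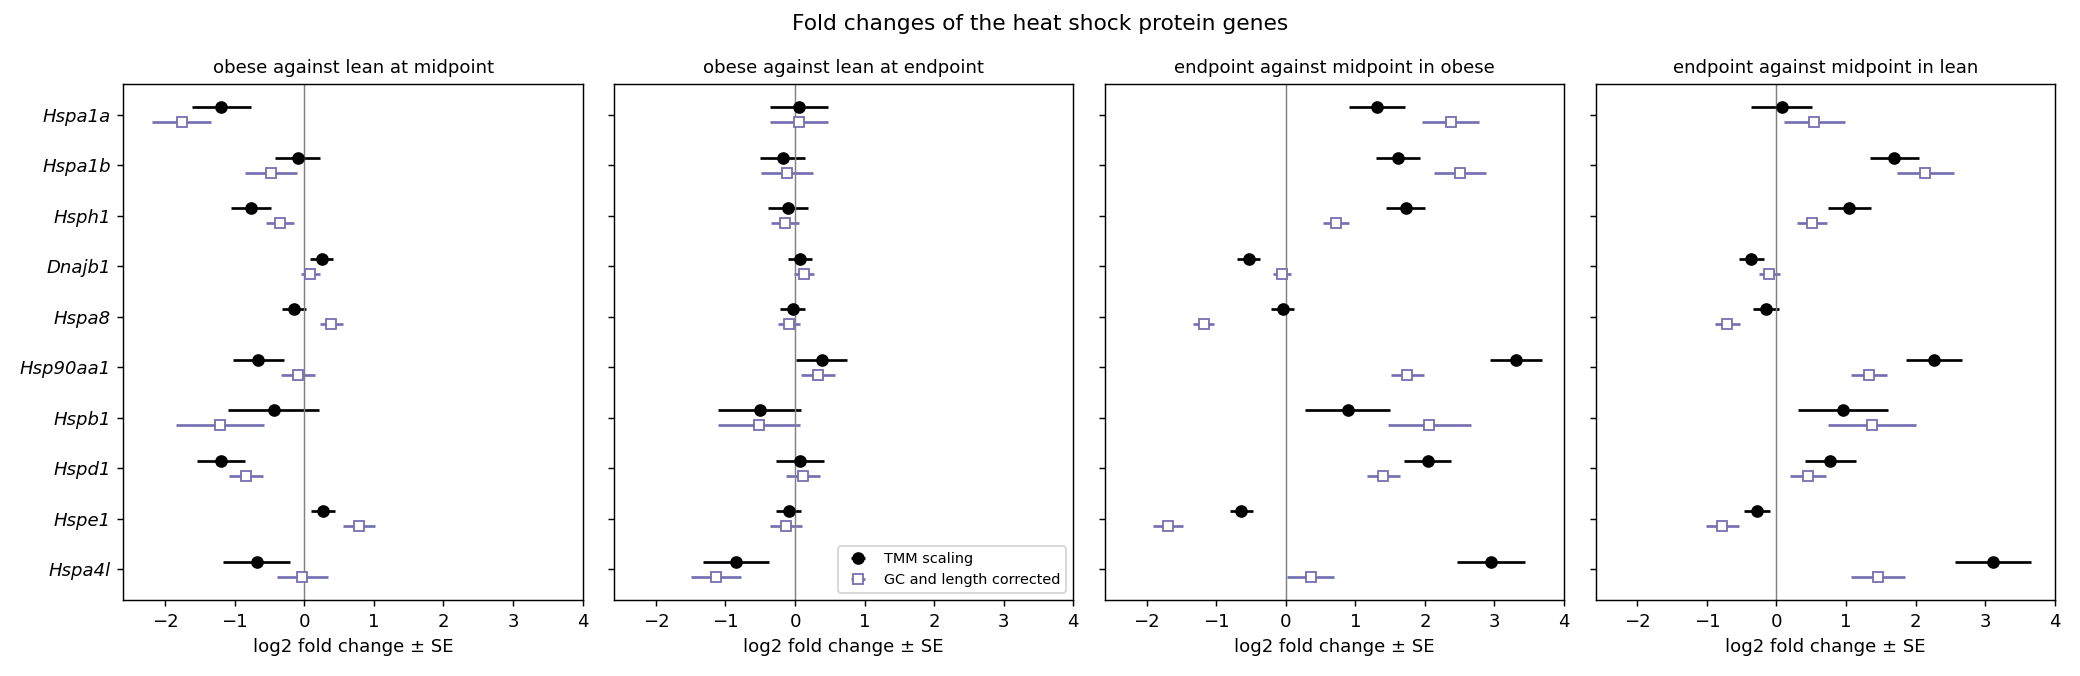
Log2 fold changes with their standard errors for the 10 genes in 4 comparisons, from the TMM-scaled fit (filled circles) and after removal of a trend on GC content and length (open squares). In obese libraries Hsp90aa1 had the highest endpoint over midpoint value (3.31), and the correction lowered that of Hspa4l to 0.36 and that of Hspa8 to -1.18.

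Between endpoint and midpoint, 7 of the 9 genes were called in obese libraries, 5 higher and 2 lower, against 73.9% of all genes (37.8% higher and 36.1% lower). With the correction 6 were higher and 2 lower, against 57.6% of all genes (25.3% higher and 32.2% lower). In lean libraries 3 of the 9 were called, all higher, against 30.9% of all genes (21.4% higher and 9.5% lower). With the correction 2 were higher and 2 lower, against 24.3% of all genes (12.3% higher and 12% lower). Of all genes called in lean libraries 69.2% were higher after TMM scaling, 50.6% after the GC and length correction and 52.1% without mitochondrial transcripts. The TMM-scaled shares lie near the background in both diets. The time comparisons use the same midpoint and endpoint libraries as the diet comparisons.

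Hsp90aa1 (chr12:110690605-110702728, mm10), the inducible cytosolic HSP90, had the largest TMM-scaled log2 fold change of the 9 genes in both diets. The obese values given above for the endpoint stood against 33.2, 11.3, 16.5, 18.8 and 11.8 CPM in obese midpoint libraries, and the lean ones against 25.0, 24.7, 31.3 and 34.8 CPM in lean midpoint libraries. No endpoint library overlapped a midpoint library in either diet. The log2 fold change was 3.31 ± 0.38 in obese libraries (edgeR adjusted p = 6.84e-07), a 9.93-fold rise, and 2.27 ± 0.40 in lean libraries (edgeR adjusted p = 0.000491), a 4.82-fold rise. These stood at the 97.1 and 97.3 percentile of all genes tested. Its corrected values, 1.75 in obese and 1.33 in lean libraries, were below those of Hspa1b (2.51 and 2.14) and Hspb1 (2.06 and 1.37). In obese libraries the corrected value of Hspa1a (2.37) was higher as well. Gm12346 and Gm5844 share 51.5% and 36.8% of the 50-base words of Hsp90aa1. Together they averaged 209 CPM at the obese endpoint, beside 182 CPM for Hsp90aa1 itself. With them the Hsp90aa1 values were 3.53 in obese and 2.40 in lean libraries.

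Hspa1b (chr17:34956436-34959238, mm10), the more abundant of the 2 inducible HSP70 genes, had 69.1, 37.9, 54.6, 61.2 and 42.5 CPM in obese endpoint libraries, against 30.3, 9.96, 17.8, 13.5 and 15.2 CPM in obese midpoint libraries. In lean libraries it had 31.2, 54.6, 109 and 44.0 CPM at the endpoint, against 17.2, 15.04, 23.2 and 18.5 CPM at the midpoint. The times did not overlap within either diet, and the log2 fold changes were 1.61 ± 0.31 in obese (edgeR adjusted p = 0.000131) and 1.69 ± 0.35 in lean libraries (edgeR adjusted p = 0.00144). Its exons hold 58.1% GC, and its corrected values were larger.

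Its near twin Hspa1a was counted at a far lower level. Obese endpoint libraries had 1.93, 2.56, 3.15, 9.24 and 1.99 CPM, against the obese midpoint values above, and it rose by 1.32 ± 0.40 on the log2 scale (edgeR adjusted p = 0.00637). Without obese endpoint replicate 4, the library at 9.24 CPM, the value was 0.68 and no longer passed (edgeR adjusted p = 0.0512). With that library kept, the value after the GC and length correction was 2.37 (edgeR adjusted p = 7.49e-05). Lean endpoint libraries had 4.25, 2.63, 4.68 and 3.00 CPM, within 0.07 ± 0.44 of the lean midpoint on the log2 scale. The log2 ratio of Hspa1b to Hspa1a averaged 4.04 ± 0.88 at the obese endpoint and 3.90 ± 0.75 at the lean endpoint, against 3.50 ± 0.93 and 2.42 ± 0.45 at the obese and lean midpoint (SD, n = 5, 4, 5 and 4). How reads that fit both genes were assigned is not given in the sources used here, so the split between them is uncertain.

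Hsph1 (chr5:149614287-149636376, mm10), an HSP110 that shares no 50-base word with another gene, had 163, 124, 135, 104 and 180 CPM in obese endpoint libraries, all above the obese midpoint libraries. It rose by 1.72 ± 0.28 (edgeR adjusted p = 2.25e-05), and by 0.72 after the GC correction (adjusted p = 0.00308). In lean endpoint libraries it had 220, 84.4, 173 and 128 CPM, where replicate 2 lay below 2 of the lean midpoint libraries. The rise of 1.05 ± 0.31 in lean libraries (edgeR adjusted p = 0.0155) was lost after the correction (0.51, adjusted p = 0.0828), and without lean midpoint replicate 1 (0.93) or 4 (0.88) or lean endpoint replicate 1 (0.77). Its relative Hspa4, a constitutive HSP110, rose by 2.57 ± 0.35 in obese and 1.63 ± 0.38 in lean libraries (edgeR adjusted p = 3.6e-06 and 0.0033), with corrected values of 1.58 and 1.06.

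Hspa4l (chr3:40744495-40796103, mm10) is an HSP110 protein known from testis, also called APG-1, and has the lowest exon GC content of the 10 genes. It had 48.5, 32.7, 47.6, 56.2 and 64.1 CPM in obese endpoint libraries, against 12.4, 3.57, 5.19, 6.28 and 4.71 CPM in obese midpoint libraries. Lean endpoint libraries had 40.5, 27.8, 245 and 45.3 CPM, against 9.15, 8.90, 11.9 and 11.4 CPM in lean midpoint libraries. Lean endpoint replicate 3 stood far above the rest, and no endpoint library overlapped a midpoint library. The log2 difference between the times was 2.95 ± 0.49 in obese and 3.12 ± 0.55 in lean libraries, and 1.87 in lean libraries without that replicate. After the GC and length correction it was 0.36 ± 0.34 in obese and 1.46 ± 0.39 in lean libraries, the largest loss to the correction among the members. Genes beside it on the chromosome did not share the high value of replicate 3: Plk4, the next gene, had 30.4 CPM there against 12.5 to 46.2 CPM in the other lean endpoint libraries, and Intu, on its other side, had 7.12 against 4.11 to 8.17 CPM. Hspa1b was also highest in that library (109 CPM), whereas Hsp90aa1 (139 CPM) and Hsph1 (173 CPM) lay within the range of the others.

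The mitochondrial pair, Hspd1 and Hspe1 (chr1:55088132-55091307, mm10), moved in opposite directions in obese libraries, although they start beside each other on opposite strands. Hspd1 had 456, 371, 428, 407 and 425 CPM in obese endpoint libraries, all above the obese midpoint libraries, and rose by 2.04 ± 0.34 (edgeR adjusted p = 2.49e-05; 1.40 after correction). Hspe1 had 218, 240, 238, 211 and 169 CPM in obese endpoint libraries, against 289, 412, 376, 283 and 314 CPM in obese midpoint libraries. The times did not overlap, and Hspe1 fell, with a log2 fold change of -0.64 ± 0.17 (edgeR adjusted p = 0.00183; -1.69 after correction). In lean libraries neither passed: Hspd1 had 555, 237, 360 and 434 CPM at the endpoint (0.77 ± 0.36, edgeR adjusted p = 0.107), and Hspe1 had 302, 222, 175 and 219 CPM, against 277, 257, 241 and 337 CPM at the lean midpoint (-0.28 ± 0.18, edgeR adjusted p = 0.244). With the correction Hspe1 was called lower in lean libraries as well (-0.78, edgeR adjusted p = 0.0253). The log2 ratio of Hspd1 to Hspe1 averaged 0.97 ± 0.26 at the obese endpoint and 0.75 ± 0.44 at the lean endpoint, against -1.93 ± 1.14 at the obese midpoint and -0.31 ± 0.67 at the lean midpoint. The ratio is not divided by exon length, so it serves to compare groups and not to rank the 2 genes. Their exons have like GC content (46.8% and 45.5%), their first exons overlap by 112 bases on opposite strands, and Hspd1-ps3 shares 42.8% of the 50-base words of Hspd1. With that copy added Hspd1 rose by 2.05.

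**Figure D3:**
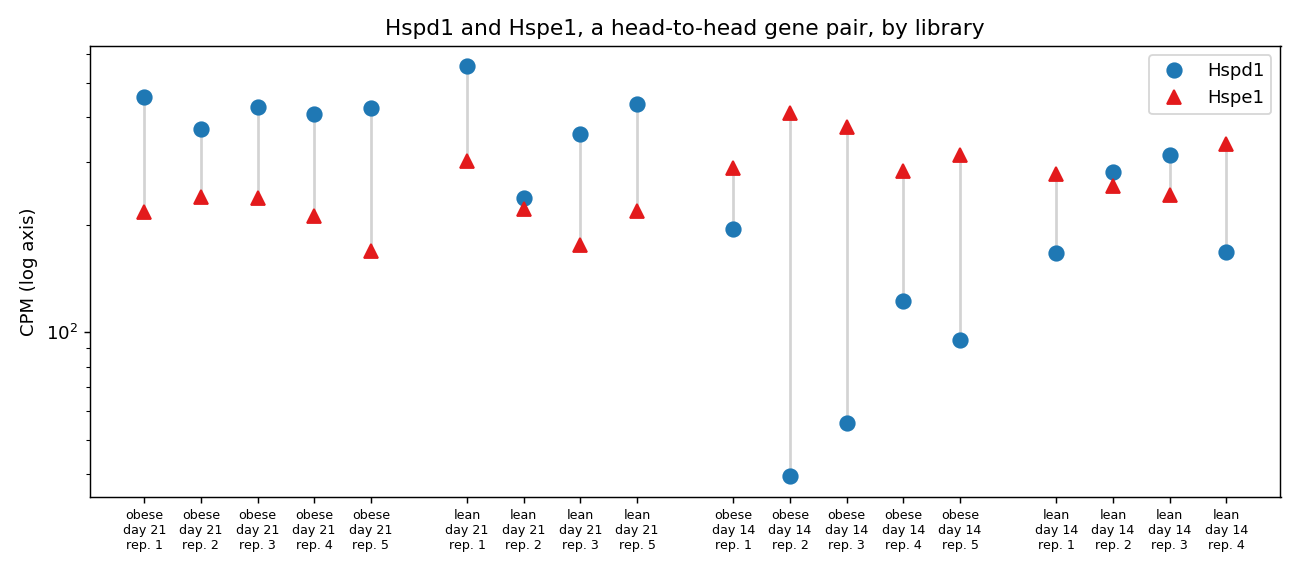
CPM (log axis) of Hspd1 (circles) and Hspe1 (triangles) in each of 18 libraries, joined by a grey line. Hspd1 lay above Hspe1 in all 9 endpoint libraries and below it in all 5 obese midpoint libraries. These CPM are not divided by exon length (2642 bases for Hspd1 and 1474 for Hspe1). Per kilobase, Hspd1 lay below Hspe1 in obese endpoint replicate 2 (140 against 163) and lean endpoint replicate 2 (89.6 against 150).

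The abundant genes moved little by comparison. Hspa8 (chr9:40800984-40805200, mm10), the constitutive HSP70, had 3641, 3515, 3841, 3386 and 2608 CPM in obese endpoint libraries, against 4163, 2158, 3260, 3892 and 4076 CPM in obese midpoint libraries. The ranges overlapped, with log2 fold changes of -0.05 ± 0.16 in obese and -0.15 ± 0.18 in lean libraries, and after the GC and length correction it was called lower in both (-1.18 and -0.70; edgeR adjusted p = 4.27e-06 and 0.00739). Of its 50-base words 52.7% occur in other genes. Dnajb1 (chr8:83608175-83611902, mm10), though inducible by heat, had 196, 179, 171, 164 and 117 CPM in obese endpoint libraries, all below the 229, 239, 275, 219 and 235 CPM of obese midpoint libraries. It fell by 0.53 ± 0.16 on the log2 scale (edgeR adjusted p = 0.00546), a call lost after the correction (-0.06). In lean libraries it had 127, 199, 157 and 145 CPM at the endpoint against 208, 173, 180 and 246 CPM at the midpoint (-0.36 ± 0.18, edgeR adjusted p = 0.124). Hspb1 (chr5:135887919-135889563, mm10), the small heat shock protein called HSP25 in mouse, was barely expressed, with a highest value of 0.417 CPM, and did not pass in either diet (0.89 ± 0.61 in obese and 0.96 ± 0.65 in lean libraries). In obese libraries it was called higher with the correction (2.06, edgeR adjusted p = 0.00596) and without obese midpoint replicate 3, its highest midpoint library (1.94, edgeR adjusted p = 0.00475).

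Set against a constitutive family member within each library, the inducible genes did not move as 1 group. The log2 ratio of Hsp90aa1 to the constitutive Hsp90ab1 averaged -4.82 ± 0.59 at the obese endpoint and -5.75 ± 1.04 at the lean endpoint, against -8.12 ± 0.68 and -7.78 ± 0.30 at the obese and lean midpoint (SD, n = 5, 4, 5 and 4). No endpoint library overlapped a midpoint library. Likewise the ratio of Hspa1a plus Hspa1b to Hspa8 averaged -5.93 ± 0.34 and -5.91 ± 0.87 at the obese and lean endpoint, against -7.59 ± 0.41 and -7.48 ± 0.19 at the obese and lean midpoint. Means of 2 ratios were lower at the endpoint. Hsph1 to Hspa4 averaged -1.85 at the obese endpoint and -1.83 at the lean endpoint, against -0.84 and -1.24 at the obese and lean midpoint, and the times overlapped in obese but not in lean libraries. Dnajb1 to Dnaja2, a constitutive J-domain protein, averaged -0.60 and -0.80 at the obese and lean endpoint, against 2.22 and 0.44 at the obese and lean midpoint, and the times overlapped in lean but not in obese libraries. Dnaja2 was itself not stable, with means of 247 and 275 CPM at the obese and lean endpoint, against 64.8 and 156 CPM at the obese and lean midpoint. None of these ratios was corrected for GC content or length. Hspa4l to Hspa4 averaged -3.36 and -3.09 at the obese and lean endpoint, against -3.60 and -4.04 at the obese and lean midpoint, and overlapped between the times in both diets. The lean endpoint mean (SD 1.43) was raised by replicate 3, at -1.01. The other lean endpoint libraries lay between -4.26 and -3.45.

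Members were also grouped as 6 inducible (Hspa1a, Hspa1b, Hsph1, Dnajb1, Hsp90aa1 and Hspb1) and 3 constitutive ones (Hspa8, Hspd1 and Hspe1). The constitutive label is loose for Hspd1 and Hspe1, since the Hspe1 window and an Hspd1 window held a run of 3 blocks. In obese libraries over time these genes also moved in opposite directions (2.04 and -0.64). The mean log2 CPM of the 6 minus that of the 3 was higher at the endpoint by 0.84 in obese and 0.74 in lean libraries. Hspb1, though barely expressed, weighs as much in that mean as the other inducible genes. Without obese midpoint replicate 3, the highest midpoint library for Hspb1, the obese value was 1.01. Obese minus lean the mean of the 6 minus that of the 3 was -0.04 at the endpoint and -0.13 at the midpoint. These differences are descriptions with no test, and after the GC and length correction they were 1.96 and 1.23 for time in obese and lean libraries and -0.74 for diet at the midpoint.

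**Figure D4:**
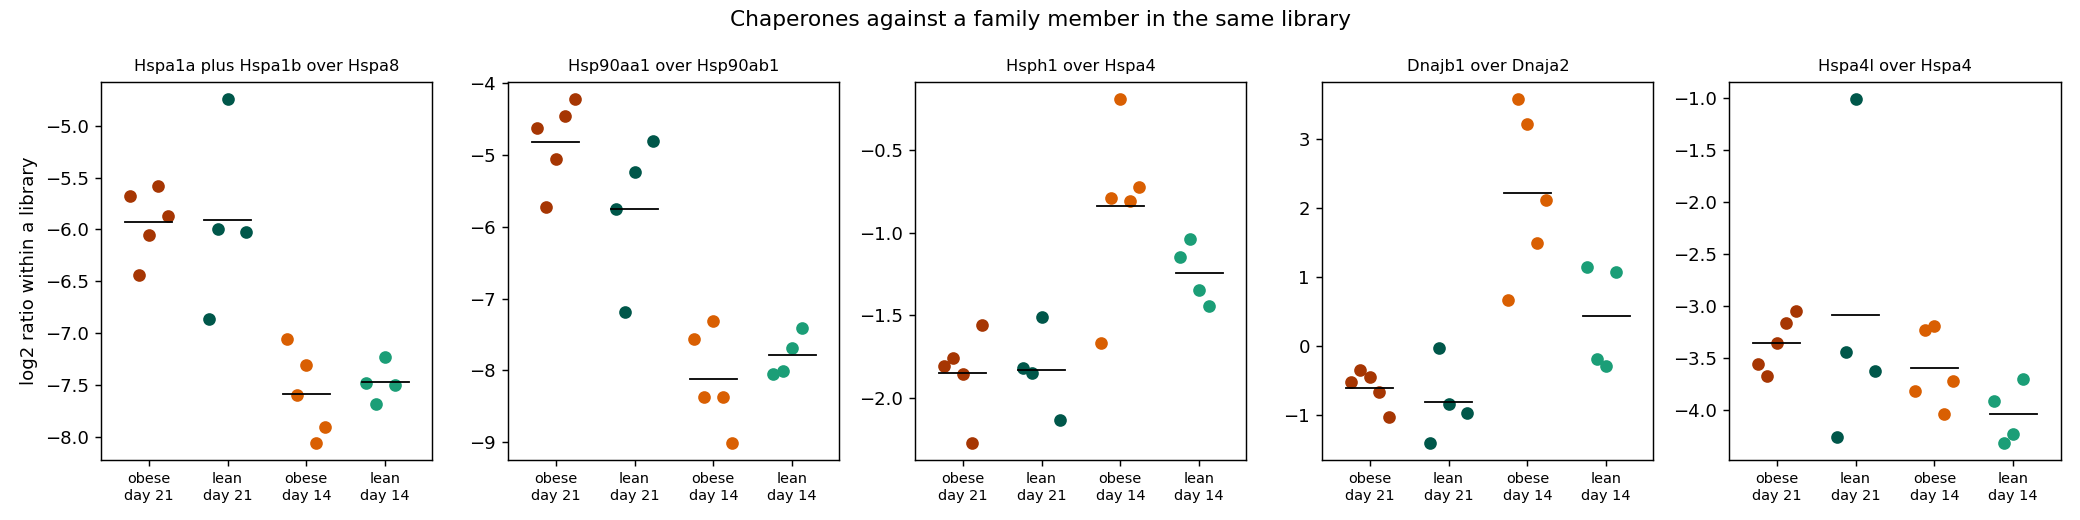
Log2 ratios within a library between a chaperone and a family member, 1 dot per library and a line at the group mean. Hsp90aa1 to Hsp90ab1 was higher at the endpoint (means of -4.82 obese and -5.75 lean) than at the midpoint (-8.12 obese and -7.78 lean). Dnajb1 to Dnaja2 had lower means at the endpoint, where Dnaja2 itself had higher mean CPM.

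Hspa1a was set beside the genes most alike to it and beside markers of macrophages. Among 10877 genes ranked by the Pearson correlation of log2 CPM over the 18 libraries, the 5 most alike to it were Itgam (r = 0.89, Spearman rho = 0.86), Milr1, Basp1, Ms4a6c and Fcgr2b (r = 0.85 to 0.88). Without the 2 libraries farthest from the median of Hspa1a the r of Itgam and Fcgr2b was 0.85. That of Milr1 was 0.80, of Basp1 0.76 and of Ms4a6c 0.73. Itgam, Milr1, Ms4a6c and Fcgr2b are known from myeloid cells, and only Itgam is among the 8 markers summed below. No correlation of Hspa1a with the marker sum was computed. All 8 macrophage and monocyte markers averaged over 1 CPM in every group. Their sum was 99.4, 111, 143, 483 and 150 CPM in obese endpoint and 174, 174, 275 and 235 CPM in lean endpoint libraries, against 179, 129, 207, 120 and 125 CPM in obese midpoint and 346, 374, 369 and 155 CPM in lean midpoint libraries. In lean libraries the median sum was 205 CPM at the endpoint against 358 CPM at the midpoint, while Hspa1a differed by 0.07 ± 0.44 on the log2 scale. In obese libraries the medians were 143 and 129 CPM, and Hspa1a differed by 1.32 ± 0.40. The library with the highest sum, obese endpoint replicate 4, was the one with the highest Hspa1a (9.24 CPM), and its Hspa1b (61.2 CPM) was within the range of its group. Their part in the result for Hspa1a was not tested.

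**Figure D5:**
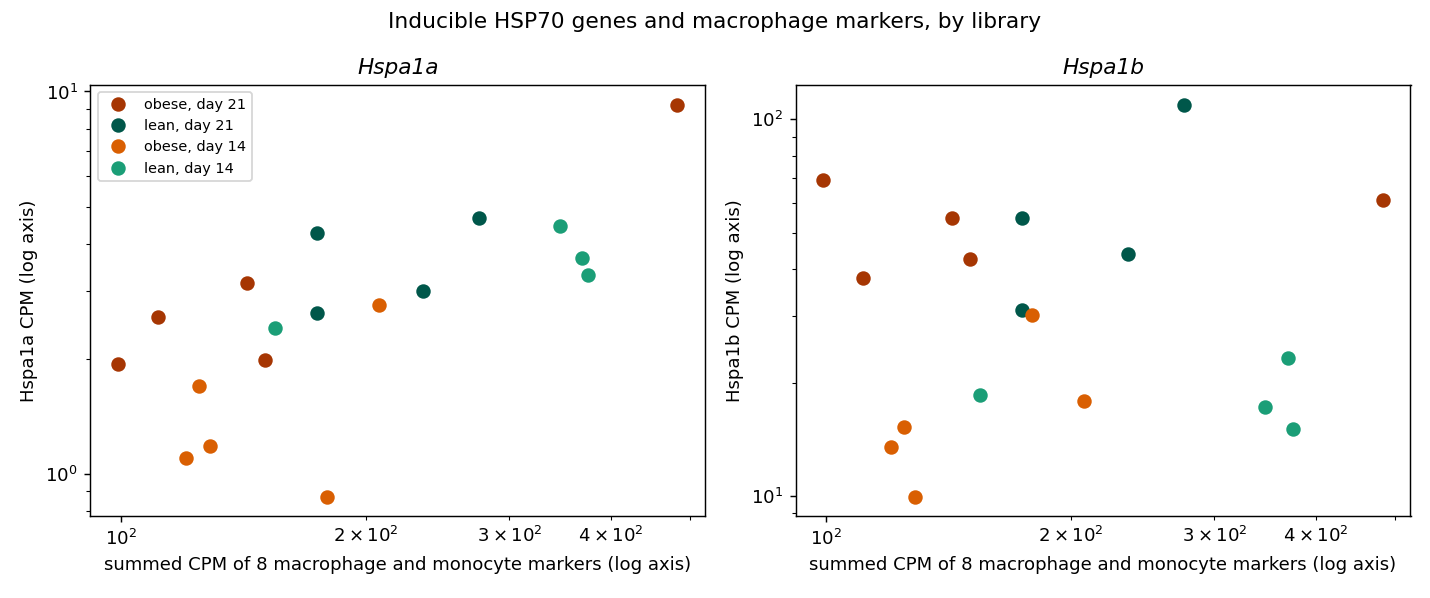
CPM of Hspa1a (left) and Hspa1b (right) against the summed CPM of 8 macrophage and monocyte markers in 18 libraries, both axes logarithmic, coloured by group. Obese endpoint replicate 4 (483 CPM of markers) had the highest Hspa1a (9.24 CPM), whereas its Hspa1b (61.2 CPM) lay within the range of its group.

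The genes most like Hspa4l were Tmem106b, Arl14ep, Man2a1, Atl3 and Smim13 (r = 0.97 to 0.98 over 18 libraries), with exons of 38.5% to 47.2% GC. Those most like Hspd1 were Pum3, Eif2s1, Rab1a, Ola1 and Nasp (r = 0.99 to 1.00), with 38.9% to 42.9% GC. The libraries in these correlations share the trend on GC content described above, and no p is given. Immediate early genes, which like the inducible heat shock genes respond to tissue dissociation, summed to 2389 to 3435 CPM in obese endpoint and 2386 to 2751 CPM in lean endpoint libraries, against 1922 to 3275 CPM in obese midpoint and 1765 to 2266 CPM in lean midpoint libraries. Of 14 such genes 5 rose and 0 fell in obese libraries and 1 rose in lean libraries between endpoint and midpoint, with medians of 0.12 and -0.03 on the log2 scale, against 0.00 and 0.04 over all genes. Over all genes 37.8% rose in obese and 21.4% in lean libraries. With the correction 12 of the 14 rose in obese and 2 in lean libraries, against 25.3% and 12.3% of all genes. The part of dissociation in the heat shock values was not tested.

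Other chaperones were read from lists to place the members, and their counts are read against the shares of all genes, 37.8% higher and 36.1% lower for obese libraries over time (25.3% and 32.2% with the correction). Between endpoint and midpoint in obese libraries, of 14 genes for HSP90 and its cochaperones 6 rose and 6 fell, near those shares, and 4 rose and 4 fell with the correction. Cacybp (3.43 ± 0.42, corrected 1.69) and Chordc1 (3.21 ± 0.33, corrected 1.08), a protein that binds HSP90, were among those that rose (edgeR adjusted p = 1.2e-06 and 4.1e-07). Of 13 J-domain proteins 9 rose and 2 fell, and 5 rose and 2 fell with the correction, Dnajb4 (2.74 ± 0.29, corrected 0.82) and Dnajc2 (3.18 ± 0.38, corrected 1.25) among those that rose. Of 13 chaperones of the endoplasmic reticulum 6 rose and 3 fell, and 6 rose and 4 fell with the correction. Hsp90b1, the HSP90 of that compartment, was at 3.10 ± 0.36 (corrected 1.27). Of 6 tested small heat shock proteins other than Hspb1, 0 rose and 4 fell, and 0 rose and 2 fell with the correction, under which Hspb6 (-1.13 ± 0.20, corrected -0.29) and Cryab (-0.83 ± 0.20, corrected -0.05) no longer passed. Of 10 mitochondrial chaperones and proteases 2 rose and 5 fell, and 1 rose and 5 fell with the correction, with Clpx at 2.79 ± 0.31 (corrected 1.504) and Grpel1, a nucleotide exchange factor, at -1.10 ± 0.17 (corrected -1.95). In lean libraries, where 21.4% of all genes rose and 9.5% fell, 4 of the 14 HSP90 genes, 5 of the 13 J-domain genes and 6 of the 13 endoplasmic reticulum genes rose, and 0, 0 and 1 fell. With the correction 1, 4 and 5 of them rose and 1, 0 and 1 fell. Of the heat shock factors, Hsf2 rose by 2.28 ± 0.33 in obese libraries and Hsf1 fell by 0.96 ± 0.19 there, values of 0.17 and -0.32 after the correction.

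Between obese and lean libraries at the midpoint, 16.7% of all genes were higher and 12.8% lower (8.23% and 3.64% with the correction). Of the 13 endoplasmic reticulum genes 0 were higher and 4 lower in obese libraries, 9 did not pass, and 0 were higher and 3 lower with the correction. Hspa5, the HSP70 of that compartment, was at -1.09 ± 0.28 (corrected -0.59) and Canx, a lectin chaperone, at -1.21 ± 0.30 (corrected -0.57; edgeR adjusted p = 0.03 for both before the correction). Of the 14 HSP90 genes 4 rose and 5 fell, and 3 rose and 2 fell with the correction, Unc45a (0.93 ± 0.23, corrected 0.42) and Cacybp (-1.45 ± 0.41, corrected -0.93) among them. Of 10 mitochondrial genes 4 rose and 1 fell, and 3 rose and 0 fell with the correction, where Grpel1 had 0.55 ± 0.18 (corrected 1.06) and Clpx -0.96 ± 0.31 (corrected -0.43). At the endpoint 0 of 94 genes of the chaperone and immediate early gene lists differed between obese and lean in edgeR or in DESeq2, 3 had an unadjusted p under 0.05 in edgeR, and the list medians lay between -0.22 and 0.15.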

How the data were processed

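RNA was measured in 19 sorted tumor cell libraries, of which 18 were compared. The authors deposited whole-number counts per gene with gene positions and lengths, per the file headers. TopHat, DESeq and mm10 appear in the submitters' processing notes, with no versions or roles. The authors' annotation, strand setting and rule for reads that fit several genes were not stated in the sources used here. The endpoint columns hold the same kind of deposited counts as the midpoint columns. Symbols came from GENCODE by identifier (37607 of 39017 matched). The members and the gene lists were chosen with earlier results of these data known.

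Counts were fitted in R 4.3.3 with edgeR 4.0.16: filterByExpr left 16352 genes, libraries were scaled by TMM, 1 mean was fitted per group, and the quasi-likelihood test was adjusted by Benjamini-Hochberg over all genes at 0.05. CPM, which are counts scaled by TMM library size, and log2 CPM with a prior count of 2 were computed from the deposited counts. Scripts were tested on simulated data. Alternatives were RLE scaling, no filter, DESeq2 1.42.0, all 19 libraries, only the groups compared, replicate numbers as a block, GC and length offsets (splines with 5 degrees of freedom, 98.6% of tested genes having a value), each library left out, and, chosen after seeing the data, no mitochondrial transcripts and counts summed with genes that share at least 5% of 50-base words. The genes named are all members, family members used in ratios, up to 4 genes per list and comparison with the smallest p, and the 5 genes most alike to Hspa4l, Hspa1a and Hspd1. Precision is set by the 4 or 5 libraries per group. A fold change of a low gene rests on few counts.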

Additional observations from a re-analysis of the deposited data

Results flagged for a closer look

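The highest or lowest library of a group was compared with the others by Dixon's gap test for 36 sets (9 genes in 4 groups), where chance alone marks about 1 in 20 sets. It marked 3. Hspa1a had 9.24 CPM in obese endpoint replicate 4, against a next highest value of 3.15 CPM, and that library also had the highest macrophage marker sum (483 CPM). Hspb1 had 0.417 CPM in obese endpoint replicate 5 and 0.341 CPM in obese midpoint replicate 3, where the next highest libraries had 0.184 and 0.0548 CPM, all at the lower limit of what these counts can show. For Hspa4l, which was selected on its counts in these libraries, the same gap is given as a description: it had 245 CPM in lean endpoint replicate 3, where the next highest library of the group had 45.3 CPM.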

How the results depend on the processing

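Over the settings other than leaving out 1 library, 329 of 379 fold changes of the 9 genes tested kept their direction and their side of the threshold. For obese against lean at the midpoint, the 2 members called became 0 with all 19 libraries, 0 with the compared groups alone, 4 with the replicate number as a block, 0 with the GC and length correction plus that block and 1 with copies summed. Leaving out 1 library gave 0 to 3. In lean libraries over time the 3 members called became 0 with all 19 libraries, and in obese libraries the 7 became 2. The interaction gave 0 to 2 members on leaving out 1 library. The mean of the members grouped as inducible minus that of those grouped as constitutive moved under the GC and length correction. It became -0.74 (diet, midpoint), 1.23 (time, lean) and 1.96 (time, obese).

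Signs turned only for values that had not passed. Obese against lean at the midpoint, Hspa8 turned to 0.39 with the GC correction and 0.43 with the block added, and Hspa4l to 0.078 with both. At the endpoint, Hspa1a turned to -0.18 with the block and -0.17 with block and GC correction. Hspa8 at the endpoint turned to 0.014 with RLE, 0.015 with no filter, 0.014 with DESeq2 and 0.0086 without mitochondrial transcripts. With all 19 libraries the endpoint values turned to 0.18 (Hspa1b), 0.29 (Hsph1), 0.34 (Hspa8) and 0.014 (Hspe1). Over time in lean libraries Hspa1a turned to -0.30 with 19 libraries and -0.049 without mitochondrial transcripts. Over time in obese libraries Hspa8 turned to 0.016 with RLE, 0.015 with no filter, 0.016 with DESeq2 and 0.035 with 19 libraries. Leaving out 1 library gave -0.39 to 0.028 for Hspa1b at the midpoint. At the endpoint it gave -0.58 to 0.22 for Hspa1a, -0.37 to 0.29 for Hspa1b, -0.28 to 0.15 for Hsph1, -0.0071 to 0.23 for Dnajb1, -0.093 to 0.063 for Hspa8, -0.085 to 0.29 for Hspd1, -0.20 to 0.074 for Hspe1 and -1.14 to 0.40 for Hspa4l. Over time it gave -0.12 to 0.17 for Hspa1a in lean and -0.18 to 0.039 for Hspa8 in obese libraries. The causes were not tested.

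Over all genes, 4825 calls at the midpoint became 1941 with the GC correction, 1 with GC correction and block, and 0 with 19 libraries or the groups alone. Leaving out 1 library gave 0 to 7946 calls there. Over time 5053 (lean) became 530 and 12091 (obese) became 4213 with 19 libraries. The single call at the endpoint became 13 in DESeq2 and 0 with 19 libraries, the groups alone or the block, and DESeq2 called 1557 genes for the interaction where edgeR called 0. Correlations of same-numbered libraries ranged between -0.40 and 0.55. Libraries of different number were not compared, so these values cannot decide whether the numbers pair the samples. Under the block 36 of 39 member values kept their direction and call. RLE and the removal of mitochondrial transcripts moved the median interaction value of all genes to 0.10 and 0.13. Few counts limit Hspb1 and Hspa1a, and shared sequence limits Hspa1a, Hspa1b, Hsp90aa1, Hspd1 and Hspa8.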

Other observations

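Lean endpoint replicate 4, the library whose counts stop on chromosome 5, still holds chromosome 3 and with it Hspa4l. Its 5266 counts of Hspa4l came to 482 when counts were scaled to the library total on chromosomes 1 to 4 in the manner of CPM. On the same scale replicate 3 had 1194, and the other lean endpoint libraries had 173 (replicate 1), 146 (replicate 2) and 223 (replicate 5). Obese endpoint libraries ranged between 167 and 302 on this scale, below both lean endpoint replicates 3 and 4. Obese midpoint libraries ranged between 16.2 and 64.9 and lean midpoint libraries between 49.2 and 63.5. The second highest Hspa4l value of all libraries thus came from a library outside the comparisons.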
